A study of Schizosaccharomyces pombe with 9 samples.

Results

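*vht1* (SPAC1B3.16c) is the fission yeast gene for the plasma membrane transporter of biotin (vitamin H), and its read counts are described here across 9 RNA-seq libraries. It is 1 of the 6988 genes in the count table. The gene was chosen by its own values in these libraries, as one of the genes with the highest counts in *ecl123*Δ relative to WT, so its levels, fold changes and ranks are a description and no test is given for them. The libraries came from 3 haploid strains of mating type h-, with 3 biological replicates each: *ecl123*Δ (*ecl1*Δ::hygMX *ecl2*Δ::natMX *ecl3*Δ::kanMX), *ecl3*Δ (*ecl3*Δ::kanMX) and WT. All strains, WT included, also carried *his3-D1*, *ura4-D18*, *leu1-32* and an *ade6* allele (*ade6-m210* or *ade6-m216*). Which of these alleles each mutant carried is not given in the sources used here. Cells were harvested in logarithmic growth in YES, a complex yeast extract medium, at 30 °C. Each mutant is represented by 1 strain, so a second change carried by that strain cannot be told apart from the deletions. The *ecl* genes encode small proteins known as extenders of chronological lifespan, and the comparison asks what deletion of one or of all 3 of them does to the transcriptome of phosphate-replete cells.

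Biotin is a vitamin that serves as a covalently bound cofactor of carboxylases. Biotin-protein ligase attaches it to acetyl-CoA carboxylase, which makes the malonyl-CoA for fatty acid synthesis, and to pyruvate carboxylase, which refills the citric acid cycle. Vht1 brings biotin into the cell, and it belongs to a family of membrane carriers that also holds transporters of pantothenate, nicotinic acid, dipeptides and carboxylic acids.

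Total counts per library ranged between 23254907 and 34871124. The *ecl3* gene had counts of 0, 0 and 1 in *ecl123*Δ, 0 in all 3 *ecl3*Δ libraries, and 23, 15 and 42 in WT, so it tracked the strain labels. The counts of the other deleted genes went against the label. *ecl1* had 2840, 2640 and 3557 counts in *ecl123*Δ, against 468, 393 and 489 in WT, and its log2 fold change of 2.74 was the highest of the coding genes tested. *ecl2* had 2242, 1752 and 2358 counts in *ecl123*Δ, against 1580, 1227 and 1830 in WT. The cassettes replaced the ORFs whereas the counts cover whole exons. The count table does not say where in the gene the reads lie, so these counts do not check the *ecl1* and *ecl2* deletions. The authors checked the transformants for correct integration by Southern blotting and selected the triple mutant by its drug-resistance markers. Of the auxotrophic markers that all strains carried, *ura4* had 0 counts in all 9 libraries, while *his3* had 294 to 658 counts in *ecl123*Δ, 385 to 542 in *ecl3*Δ and 354 to 555 in WT. All 5 M-cell marker genes (*mfm1*, *mfm2*, *mfm3*, *mam1* and *mam2*) were detected in every library, with summed counts of 1986 to 2475 in *ecl123*Δ, 3941 to 6498 in *ecl3*Δ and 4773 to 7628 in WT, while the P-cell markers *map2* and *map3* together had 301 to 618 counts. The M-cell markers thus moved against *vht1*, and their part in its level was not tested. Library 3 of *ecl123*Δ stood farthest from the replicates of its strain over all genes, with a mean chi-square of 242 and 213 per gene to the other two, against 7.63 to 85.5 for the other replicate pairs. The fold change of *vht1* without it is given below.

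The *vht1* transcript was high in every *ecl123*Δ library. Its normalized read count, which is the count scaled to the mean effective library size, was 19818, 17585 and 22115 in the *ecl123*Δ libraries 1, 2 and 3. It was 11657, 5276 and 7859 in the *ecl3*Δ libraries, and 6684, 5750 and 5503 in the WT libraries. All 3 *ecl123*Δ libraries lay above the other 6, and the lowest of them was 2.63 times the highest WT library and 1.51 times the highest *ecl3*Δ library. The *ecl3*Δ libraries overlapped WT: 2 were above the highest WT library and 1 was below the lowest. The means were 19840 ± 2265 in *ecl123*Δ, 8264 ± 3210 in *ecl3*Δ and 5979 ± 623 in WT (SD, n = 3 each). In a bulk sample, more RNA per cell and more cells with the RNA cannot be told apart.

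**Figure D1:**
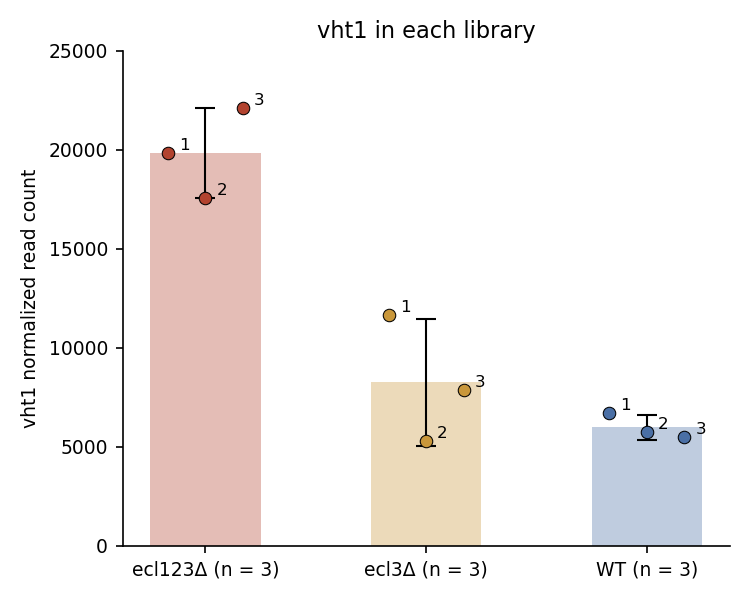
Normalized read count of *vht1* (y axis) in the *ecl123*Δ, *ecl3*Δ and WT libraries. Points are libraries with their replicate number, bars are means and error bars are SD (n = 3). The *ecl123*Δ libraries sit between 17585 and 22115, the *ecl3*Δ libraries between 5276 and 11657 and the WT libraries between 5503 and 6684.

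In the fit of all genes, the log2 fold change of *vht1* was 1.73 (SE 0.23) in *ecl123*Δ relative to WT, a ratio of means of 3.32. It was 1.26 (SE 0.23) in *ecl123*Δ relative to *ecl3*Δ, a ratio of means of 2.40, and 0.47 (SE 0.23) in *ecl3*Δ relative to WT, a ratio of means of 1.38. The median log2 fold change over the 5019 coding genes tested was 0.00 in each comparison, and the median SE was 0.12. The value in *ecl123*Δ relative to WT was 1.64 without *ecl123*Δ library 3 and lay between 1.64 and 1.82 whichever library was left out. The difference between *ecl3*Δ and WT rested more on single libraries. It was 0.14 without *ecl3*Δ library 1 and 0.71 without *ecl3*Δ library 2. The difference between *ecl123*Δ and *ecl3*Δ was 1.60 without *ecl3*Δ library 1 and 1.02 without *ecl3*Δ library 2.

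By log2 fold change between *ecl123*Δ and WT, *vht1* ranked 7 of the 5019 coding genes, counted from the most raised. Its place was 9 to 11 without WT library 1, WT library 2 or *ecl123*Δ library 2, and 25 when genes of low count were not filtered out. The 4 genes just above it were *ddr48* (log2 fold change 2.42), SPBC1289.14, an adducin (2.19), SPBPB2B2.05, of the class I glutamine amidotransferase family (2.06), and *atd1*, an aldehyde dehydrogenase (1.79). The 4 just below were SPAPB1A11.03, an L-lactate dehydrogenase (1.68), SPAC1039.02 (1.67), *tlh2* (1.62) and *str1*, a siderophore-iron transporter (1.59). SPAC1039.02 is annotated as a phosphoprotein phosphatase, while the authors describe its product as a predicted extracellular nucleotidase. *tlh2* is a RecQ type helicase gene with near-identical subtelomeric copies that may share its reads. The most abundant of these 8 were *atd1*, with a mean of 12528 ± 6901 in *ecl123*Δ and 3629 ± 820 in WT, and SPAC1039.02, with 7550 ± 1019 in *ecl123*Δ and 2371 ± 150 in WT (SD, n = 3 each). The other 6 had lower means than these in both strains. Among the 314 coding genes whose mean in the higher strain was at least that of *vht1*, *vht1* ranked 1. Divided by its SE, the fold change of *vht1* ranked 3 of all coding genes.

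**Figure D2:**
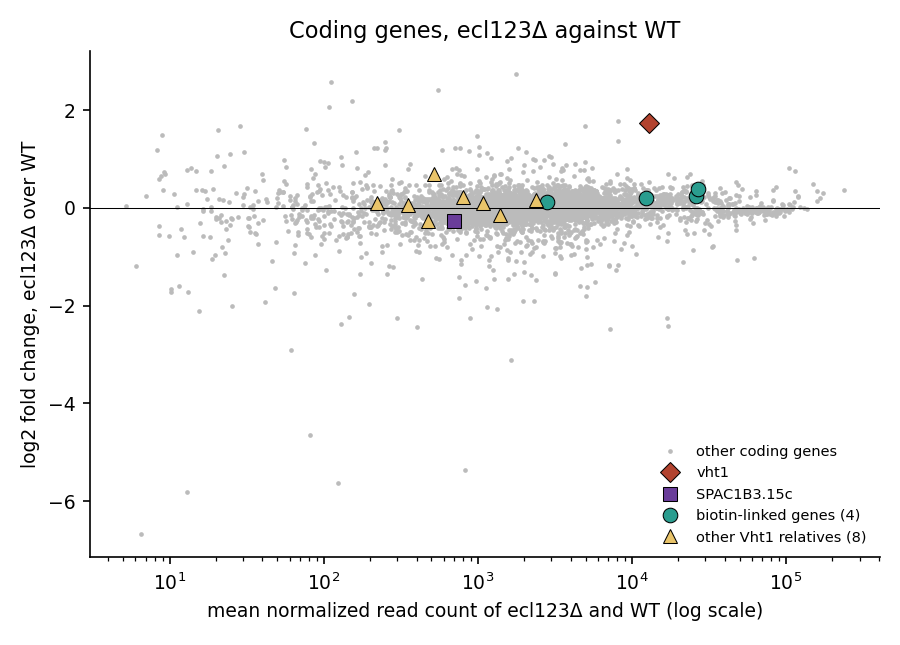
Log2 fold change in *ecl123*Δ over WT (y axis) against the mean normalized read count of both strains (x axis, log scale) for the coding genes tested, 1 point each. *vht1* (diamond, 1.73) lies above the 4 biotin-linked genes (circles, 0.13 to 0.40), its tandem neighbour SPAC1B3.15c (square, -0.27) and the other 8 Vht1 relatives (triangles, -0.27 to 0.70).

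As background for these values, 14 of the 5019 coding genes (0.279%) were called higher in *ecl123*Δ than in WT and 23 (0.458%) lower, with limits of 0.05 on the edgeR adjusted p, 2 on the fold and 100 on the mean normalized count of the higher strain. With the adjusted p alone, the counts were 29 (0.578%) and 31 (0.618%). Both counts of higher genes include *ecl1*, whose reads do not check its deletion. They also include *vht1*, which was chosen by these values, so its own call is no support. In *ecl3*Δ relative to WT, 30 coding genes higher (0.598%) and 37 lower (0.737%) had an unadjusted p under 0.05. With or without the other limits, 0 coding genes (0%) passed the edgeR adjusted p there. The deleted *ecl3*, of low count in WT, was thus not called either, so the 0 does not show that no gene differed. DESeq2 gave 0 higher and 2 lower by adjusted p in that comparison. *ecl3* was not left out of the genes compared, and whether it is among the 2 is not given here. Between *ecl123*Δ and *ecl3*Δ, 3 were higher by adjusted p (0.0598%), 2 of them past the other limits (0.0398%), and 0 were lower (0%). The 2 were *ecl1* and SPBC23G7.13c, annotated as a urea transporter. Before adjustment, p was under 0.05 for 522 coding genes higher in *ecl123*Δ than in WT (10.4%) and for 475 lower (9.46%). The 14 became 1 when WT library 1, 2 or 3, *ecl3*Δ library 3 or *ecl123*Δ library 1 was left out, 23 without *ecl3*Δ library 2 and 39 without *ecl123*Δ library 2. The 3 *ecl123*Δ libraries lay above all 3 WT libraries in 632 of 4852 coding genes with a mean of at least 100 (13.0%), and above all WT and *ecl3*Δ libraries in 267 (5.50%). Among these genes, the log2 gap of *vht1* between its lowest *ecl123*Δ library and its highest WT library, 1.40, ranked 4, and that to the highest of the WT and *ecl3*Δ libraries, 0.59, ranked 6.

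*vht1* was an abundant transcript in every strain. By mean normalized read count it ranked 302 of 5019 coding genes in *ecl123*Δ, 583 in *ecl3*Δ and 810 in WT. Per kb of mRNA, taking the RefSeq length of 2213 bases, its level was 8965 in *ecl123*Δ, 3734 in *ecl3*Δ and 2702 in WT normalized counts per kb, which is 8.62, 3.58 and 2.57 times the median coding gene of the strain. By this scale it stood at place 402, 852 and 1149 of the 5014 coding genes with a RefSeq mRNA length.

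The *ecl3*Δ replicates of *vht1* spread more than those of the other strains. The coefficient of variation was 11.4% in *ecl123*Δ, 38.8% in *ecl3*Δ and 10.4% in WT, and the highest *ecl3*Δ library was 2.21 times the lowest. The SD of log2 CPM (the count scaled to library size, on a log2 scale with a prior count of 2) between replicates was 0.17 in *ecl123*Δ, 0.57 in *ecl3*Δ and 0.15 in WT. Among coding genes with a mean of at least 100, counted from the most variable, these SDs ranked 2756 of 4826 in *ecl123*Δ, 91 of 4823 in *ecl3*Δ and 663 of 4829 in WT. The SD in *ecl3*Δ was 6.21 times the median gene of that strain.

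To place each *ecl3*Δ culture, its log2 CPM was set on a scale on which 0 is the WT mean and 1 the *ecl123*Δ mean. *vht1* stood at 0.56 in *ecl3*Δ library 1, at -0.10 in library 2 and at 0.23 in library 3. The WT libraries themselves ran between -0.07 and 0.10 and the *ecl123*Δ libraries between 0.90 and 1.09. Library 1 of *ecl3*Δ was therefore outside the range of both other strains, library 2 just under the lowest WT library, and library 3 above the highest. The other 12 genes called higher in *ecl123*Δ, leaving out *ecl1*, which is itself deleted there, had median positions of 0.47, -0.02 and 0.37 in the *ecl3*Δ libraries 1, 2 and 3. Of these 12, 5 stood above *vht1* in library 1, 7 in library 2 and 9 in library 3. All of these positions rest on the same WT and *ecl123*Δ libraries.

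**Figure D3:**
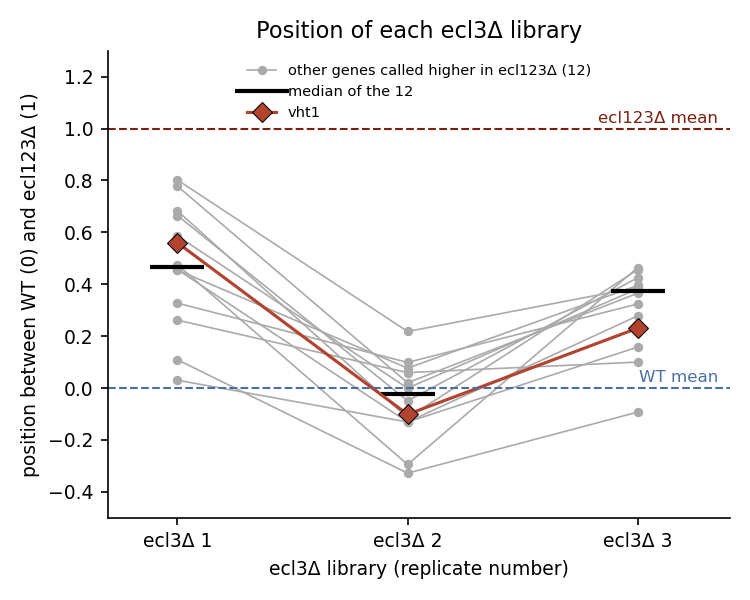
Position of the 3 *ecl3*Δ libraries (x axis) between the WT mean (0) and the *ecl123*Δ mean (1) on log2 CPM (y axis), for *vht1* (diamonds) and the 12 other genes called higher in *ecl123*Δ (grey). Lines join the values of 1 gene and imply no order, and black bars are the medians of the 12. *vht1* stood at 0.56, -0.10 and 0.23, and the medians were 0.47, -0.02 and 0.37.

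The nearest coding gene on one side of *vht1* in the RefSeq gene order is SPAC1B3.15c, annotated as a vitamin H transporter on the same strand. Its protein is 54.7% identical to Vht1 over 477 aligned residues and is 628 residues long, against 568 for Vht1. SPAC1B3.15c had 471, 750 and 685 normalized counts in *ecl123*Δ, 739, 839 and 780 in *ecl3*Δ, and 786, 717 and 796 in WT. The *ecl123*Δ values overlapped those of WT, and the log2 fold change was -0.27 (SE 0.16, edgeR adjusted p = 0.390). It was -0.09 without *ecl123*Δ library 1 and -0.41 without *ecl123*Δ library 2. Per kb of mRNA, *vht1* had 48.8, 27.1 and 37.4 times the counts of SPAC1B3.15c in the *ecl123*Δ libraries. In *ecl3*Δ the ratio was 18.3, 7.28 and 11.7, and in WT it was 9.85, 9.29 and 8.01. The mean ratio was 37.8 ± 10.8 in *ecl123*Δ, 12.4 ± 5.53 in *ecl3*Δ and 9.05 ± 0.945 in WT (SD, n = 3 each). Of the 2163 windows of 51 bases, the read length, in the *vht1* mRNA, 0 occurred a second time in the RefSeq genome, so reads of *vht1* had no identical copy in SPAC1B3.15c.

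The other neighbours did not pass the test in *ecl123*Δ relative to WT. *vma3*, which encodes the proteolipid subunit of the vacuolar ATPase and lies beyond SPAC1B3.15c, had a log2 fold change of -0.14 (edgeR adjusted p = 0.611). On the other side, *clr2*, a subunit of the SHREC silencing complex, had 0.37 (edgeR adjusted p = 0.0956), and *mrps18*, a mitochondrial ribosomal protein gene, had -0.01 (edgeR adjusted p = 0.967). By DESeq2, *clr2* passed with an adjusted p of 0.0194. SPNCRNA.1039, a noncoding RNA between *vht1* and *clr2*, had raw counts of 38, 11 and 31 in *ecl123*Δ, 9, 4 and 5 in *ecl3*Δ, and 0, 9 and 12 in WT. Its raw *ecl123*Δ and WT counts overlapped, its normalized counts did not (12.60 in the lowest *ecl123*Δ library, 10.97 in the highest WT library), and it did not pass (log2 fold change 1.93, SE 0.73, edgeR adjusted p = 0.171). SPNCRNA.256, also between them, had 0 counts in all libraries. RefSeq also places the antisense RNA SPNCRNA.4231 over *vht1*, which was not analysed here. The libraries mark strand, but the strand setting of the counting is not given in the sources used here, so reads of that RNA cannot be told apart from those of *vht1*.

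Genes that use or make biotin in the cell had small log2 fold changes in *ecl123*Δ relative to WT, 0.13 to 0.40, all above 0. Of 4 such genes, 0 passed the edgeR adjusted p in any of the 3 comparisons, and 2 had an unadjusted p under 0.05 in *ecl123*Δ relative to WT, both higher, beside 10.4% of all coding genes. The median log2 fold change of the 4 was 0.22 in *ecl123*Δ relative to WT, beside 0.00 for all coding genes.

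*bpl1*, the biotin-protein ligase, had 2853, 2881 and 3136 normalized counts in *ecl123*Δ, 3004, 2504 and 2872 in *ecl3*Δ, and 2779, 2731 and 2592 in WT. The *ecl123*Δ libraries were all above WT by a narrow margin, with a log2 fold change of 0.13 (SE 0.09, edgeR adjusted p = 0.453). *cut6*, the acetyl-CoA carboxylase, had 25250, 21684 and 37755 in *ecl123*Δ, 31447, 24532 and 23973 in *ecl3*Δ, and 29186, 22554 and 19612 in WT. These ranges overlapped, and the highest value came from *ecl123*Δ library 3. Its log2 fold change was 0.25 (SE 0.22, edgeR adjusted p = 0.600) and -0.02 without that library. *pyr1*, the pyruvate carboxylase, had 27024, 26484 and 38199 in *ecl123*Δ, 28576, 23388 and 23798 in *ecl3*Δ, and 26269, 22730 and 20718 in WT. All *ecl123*Δ libraries were above WT, the lowest by a narrow margin, and *ecl123*Δ library 3 was again highest. The log2 fold change was 0.40 (SE 0.16, edgeR adjusted p = 0.204) and 0.20 without that library. *bio2*, annotated as biotin synthase, had 12396, 13414 and 13413 in *ecl123*Δ, 11219, 11710 and 11735 in *ecl3*Δ, and 11288, 11637 and 11335 in WT. All *ecl123*Δ libraries were above the other 6, by a small margin, with a log2 fold change of 0.20 (SE 0.07, edgeR adjusted p = 0.166, DESeq2 adjusted p = 0.0297). Of coding genes with a mean of at least 100, 13.0% had all *ecl123*Δ libraries above WT, as *bpl1*, *pyr1* and *bio2* did. The share with all of them above the other 6, as for *bio2*, was 5.50%.

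Genes of fatty acid and lipid metabolism and their regulators were near WT in the median. Of 18 such genes (among them *fas1* and *fas2*, the fatty acid synthase subunits, and *ole1*, the stearoyl-CoA desaturase), 0 passed the edgeR adjusted p in any comparison. In *ecl123*Δ relative to WT, 2 were higher and 1 lower at an unadjusted p under 0.05, beside 10.4% higher and 9.46% lower of all coding genes. Their median log2 fold change was 0.04, with a range of -0.28 to 0.52. Over the biotin and fatty acid genes together, 0 of 22 passed with edgeR, and 2, both higher, passed with DESeq2.

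Sequence relatives of Vht1 were found by blastp among the RefSeq proteins at an E value of at most 1e-10, which gave 9 genes besides *vht1*. Of these, 1 of 9 was higher in *ecl123*Δ than in WT by edgeR adjusted p and 0 were lower, beside 0.578% and 0.618% of all coding genes. In the other comparisons 0 passed. At an unadjusted p under 0.05 in *ecl123*Δ relative to WT, 1 was higher and 0 were lower, beside 10.4% and 9.46% of all coding genes. The median log2 fold change of the 9 was 0.10, with a range of -0.27 to 0.70, so each of them was far below *vht1*. The 1 that passed was SPAC11D3.18c, annotated as a carboxylic acid transporter, with 619, 644 and 675 normalized counts in *ecl123*Δ, 413, 373 and 502 in *ecl3*Δ, and 402, 436 and 357 in WT. All of its *ecl123*Δ libraries were above the other 6. Its log2 fold change was 0.70 (SE 0.14, edgeR adjusted p = 0.0475), which is under 2-fold. This call was lost when any WT library, any *ecl123*Δ library or *ecl3*Δ library 3 was left out, while the log2 fold change stayed between 0.62 and 0.77. The adjusted p over the 15 alternatives ranged between 0.00013 and 0.236. The others were the pantothenate transporter gene *liz1* (log2 fold change 0.16), the nicotinic acid transporter genes *tna1* (0.10) and SPBC1683.12 (-0.27), the dipeptide transporter genes *dal52* (0.10), *dal51* (-0.15) and SPCC757.13 (0.05), SPAC1039.04 (0.23), annotated as a carboxylic acid transporter, and SPAC1B3.15c.

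**Figure D4:**
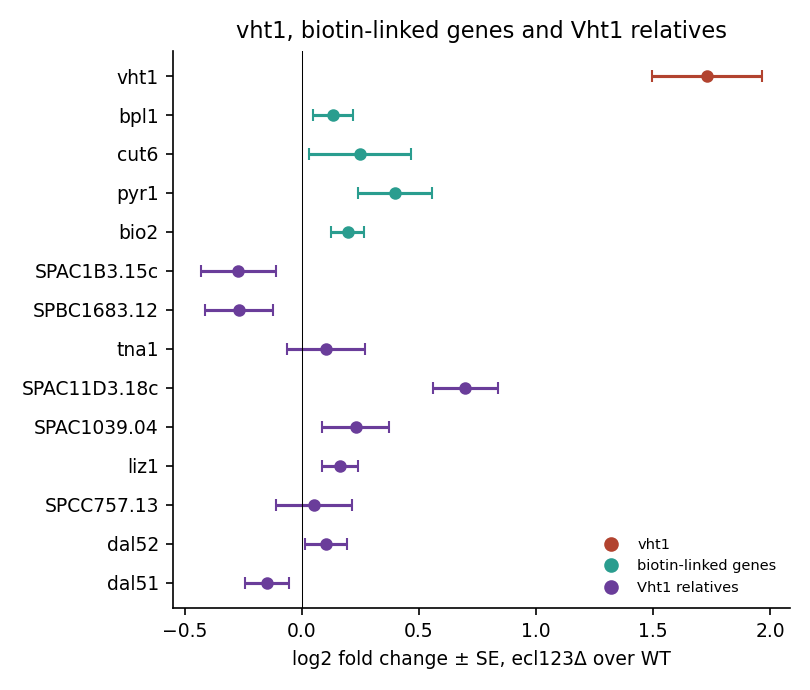
Log2 fold change in *ecl123*Δ over WT with its SE (x axis) for *vht1*, the 4 biotin-linked genes and the 9 Vht1 relatives (rows). *vht1* stands at 1.73 (SE 0.23), the biotin-linked genes between 0.13 and 0.40, and the relatives between -0.27 and 0.70.

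Among 18 genes of vitamin uptake and cofactor synthesis, 1 was higher and 0 were lower in *ecl123*Δ than in WT by edgeR adjusted p, and 0 passed in the other comparisons. The 1 that passed was SPBC530.07c, annotated as a TENA/THI family protein, a family named for thiamine-linked enzymes. It was put on the list with its result known, so its count is not a result about the list, and without it 0 of 17 passed in either direction. At an unadjusted p under 0.05 in *ecl123*Δ relative to WT, 4 of the 17 were higher and 2 lower, beside 10.4% and 9.46% of all coding genes. SPBC530.07c had 1362, 1259 and 1516 normalized counts in *ecl123*Δ, 1012, 654 and 869 in *ecl3*Δ, and 707, 614 and 645 in WT. The *ecl123*Δ libraries were above all others, with a log2 fold change of 1.07 (SE 0.15, edgeR adjusted p = 0.0336). The call was lost without any 1 WT library, *ecl3*Δ library 3 or *ecl123*Δ library 1, where the adjusted p reached 0.169, and the log2 fold change stayed between 1.00 and 1.13. *thi9*, the high-affinity thiamine transporter gene, had 1119, 903 and 1715 in *ecl123*Δ, 1090, 772 and 852 in *ecl3*Δ, and 746, 699 and 719 in WT. All its *ecl123*Δ libraries were above WT, with a log2 fold change of 0.79 (SE 0.22, edgeR adjusted p = 0.0956), which did not pass. The riboflavin kinase gene *fmn1* went the other way and did not pass either (log2 fold change -0.47, SE 0.14, edgeR adjusted p = 0.106). It had 1340, 1334 and 931 in *ecl123*Δ, 1382, 1605 and 1617 in *ecl3*Δ, and 1607, 1703 and 1678 in WT. Of the 6 most abundant members, *sno1*, a subunit of vitamin B6 synthesis, had 0.40 (edgeR adjusted p = 0.0956). The others were *snz1*, its partner (0.05), *rib3* (-0.05) and *rib1* (-0.11) of riboflavin synthesis, *pho4*, a thiamine-repressible acid phosphatase gene (0.18), and *thi1*, a transcription factor of thiamine genes (0.17).

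Among 26 genes besides *vht1* annotated as plasma membrane transporters, 4 of which also stand among the relatives or the vitamin genes above, 0 were called higher and 2 lower in *ecl123*Δ than in WT. Of all coding genes, 0.279% were called higher and 0.458% lower at the same limits. DESeq2 also called 0 higher and 2 lower, and at an unadjusted p under 0.05 with edgeR 7 were higher and 3 lower, beside 10.4% and 9.46% of all coding genes. *zrt1*, a zinc transporter gene, fell to 2243, 3543 and 3192 normalized counts in *ecl123*Δ, against 9426, 8534 and 7809 in WT (log2 fold change -1.52, edgeR adjusted p = 0.0465). Its *ecl3*Δ libraries had 3255, 8218 and 7208. *itr2*, a myo-inositol transporter gene, fell to 11603, 14260 and 14903 in *ecl123*Δ, against 28282, 29418 and 29716 in WT (log2 fold change -1.10, edgeR adjusted p = 0.0423). Its *ecl3*Δ libraries had 16080, 30556 and 21335. For both genes *ecl123*Δ did not overlap WT, while *ecl3*Δ library 1 of *zrt1* lay within the *ecl123*Δ range and *ecl3*Δ library 2 of *itr2* lay above all WT libraries. The call of *zrt1* was lost without any WT library, any *ecl123*Δ library or *ecl3*Δ library 3, and that of *itr2* without any WT library, *ecl3*Δ library 3, or *ecl123*Δ library 1 or 2, with adjusted p up to 0.180 for both and log2 fold changes of -1.66 to -1.35 and -1.18 to -0.99. *pgt1*, a glutathione transporter gene, had the highest log2 fold change of the 26, with 2784, 2568 and 3990 in *ecl123*Δ, and 1857, 1503 and 1359 in WT (log2 fold change 0.99, edgeR adjusted p = 0.0588). The 26 hold only genes whose annotated product names the plasma membrane. Genes called higher in *ecl123*Δ outside that list include SPBC23G7.13c, annotated as a urea transporter, SPCPB1C11.03, a cysteine transporter, and SPBPB2B2.01, an amino-acid permease. Genes called lower were not sorted in this way.

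The profile of *vht1* over the 9 libraries was compared with that of 4824 other coding genes by Pearson's r of log2 CPM. The libraries of a strain share that strain's difference, so a high r mostly says that a gene was high in the same strain. r was at least 0.9 for 121 genes and at most -0.9 for 149. The most similar gene was SPBC530.07c (r = 0.992). With each library left out in turn, its r stayed between 0.989 and 0.996, and it was the most similar gene in 6 of the 9 cases and no lower than place 3 in the others. Next came *lys4*, homocitrate synthase of lysine synthesis (r = 0.984, log2 fold change 0.63 in *ecl123*Δ relative to WT), and *cit1*, citrate synthase (0.983, 0.41). They were followed by the transporter gene *amf1* (0.979, 0.45), *pro1* of proline synthesis (0.979, 0.37), *eca39*, the branched chain amino acid aminotransferase (0.977, 0.48), *gua1*, the IMP dehydrogenase (0.974, 0.27), and *ppc1* of coenzyme A synthesis (0.973, 0.42). These genes had the shape of *vht1* at a much smaller size, with log2 fold changes of 0.27 to 1.07 in *ecl123*Δ relative to WT. They were picked for this likeness, so no test of their strain difference is given, apart from that of SPBC530.07c above, which lends no support to the likeness.

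**Figure D5:**
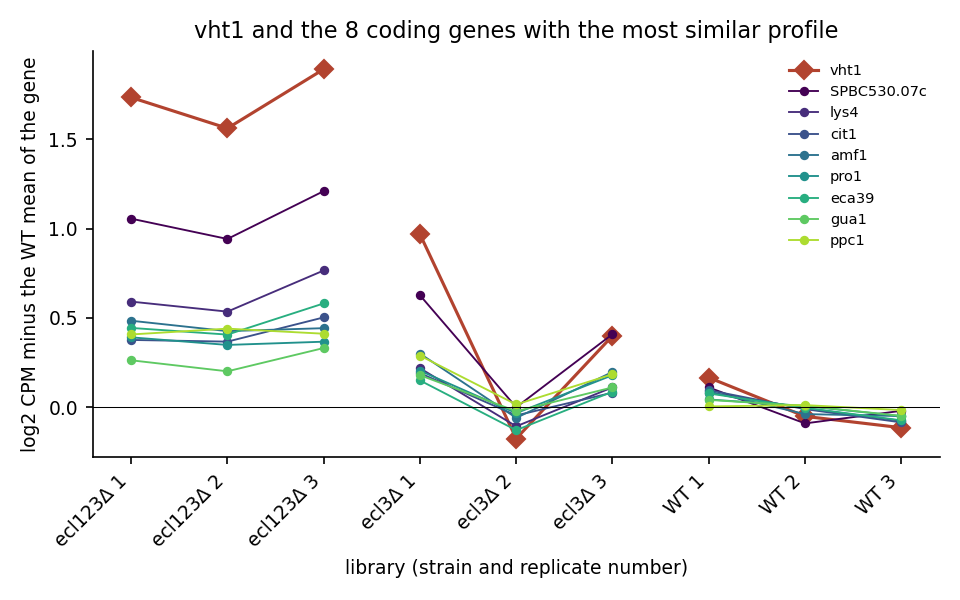
Log2 CPM minus the WT mean of each gene (y axis) in the 9 libraries (x axis) for *vht1* (diamonds) and the 8 coding genes with the highest r to it. Lines join the libraries of 1 strain and imply no order. *vht1* reaches 1.56 to 1.89 in *ecl123*Δ, SPBC530.07c 0.94 to 1.21, and the genes share the high *ecl3*Δ library 1 and the low *ecl3*Δ library 2.

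At the other end stood *mfm2*, a mating pheromone gene (r = -0.989), *mam2*, the P-factor receptor gene (-0.985), the protein kinase gene *ppk33* (-0.984) and *mug8* (-0.983). *mfm2* had 958, 867 and 701 normalized counts in *ecl123*Δ, 1384, 2449 and 1846 in *ecl3*Δ, and 2081, 2490 and 2311 in WT. The *ecl3*Δ libraries took the reverse order of those of *vht1*, with library 2 highest and library 1 lowest. When the strain means were removed, so that r measured only the deviations within strains, the genes most like *vht1* were *mex67*, an mRNA export factor gene (0.977), SPAC1687.11, an rRNA methyltransferase gene (0.974), SPBC530.07c (0.969) and *met17*, homocysteine synthase (0.964). In this measure the *ecl3*Δ libraries weigh most, because *vht1* varied most there. *met17* had 5608, 3294 and 4882 normalized counts in the *ecl3*Δ libraries 1, 2 and 3, the same order as *vht1*.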

How the data were processed

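Per the labels and methods, the authors aligned paired 51-base reads of poly(A)+ RNA to build ASM294v2 (HISAT2 2.1.0) and counted them over exons (HTSeq 0.10.0). The deposited counts are whole numbers, not normalized, for 6988 genes in 9 libraries. All 9 columns were used. The deposited tables of the authors' DESeq2 comparisons hold strain means, fold changes and p-values and were not used.

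Counts were filtered with filterByExpr (6257 genes, 5019 coding), normalized by TMM and fitted in edgeR 4.0.16 (R 4.3.3) over all 9 libraries, with quasi-likelihood tests and Benjamini-Hochberg adjustment over all genes tested. An exact permutation test of 3 against 3 cannot give a two-sided p under 0.1. DESeq2 1.42.0, other size factors, no filter, 2-strain fits, a replicate block and leaving out each library were the alternatives.

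The gene and the lists were chosen with earlier results of these data known. The named genes were *vht1*, all biotin genes, vitamin and relative genes that passed or were most abundant, called transporters, chromosome and rank neighbours, and those of highest and lowest r. *thi9*, *fmn1*, *pgt1*, SPBC23G7.13c, SPCPB1C11.03 and SPBPB2B2.01 were named after their values were seen. One list key that now names another enzyme and 1 gene of ubiquinone synthesis were corrected without regard to values, and 1 key matched no gene. Names, products, lengths and proteins came from RefSeq ASM294v3, matched by ID for 6836 genes, with blastp 2.17.0. Its build is not that of the counts, so no coordinates are given.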

Additional observations from a re-analysis of the deposited data

How the results depend on the processing

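Apart from leaving out a library, the alternatives moved the log2 fold changes of *vht1* in the 3 comparisons by less than the spread between replicates. The same held for its position in each *ecl3*Δ library. Leaving out 1 of 3 replicates moves a strain mean by less than that spread whatever the values, so for *vht1* only the values are given. With each library left out, the log2 fold change ran between 1.64 and 1.82 in *ecl123*Δ relative to WT, 0.14 and 0.71 in *ecl3*Δ relative to WT, and 1.02 and 1.60 in *ecl123*Δ relative to *ecl3*Δ. Its rank in *ecl123*Δ relative to WT, 7, was 25 with no low-count filter and ran between 7 and 11 with libraries left out. Biotin and fatty acid genes past the adjusted p and higher, 0 of 22, were 2 with DESeq2 and 1 with only the 2 strains fitted, and 0 to 1 with libraries left out. For the vitamin genes, 1 higher and 0 lower became 3 and 1 with DESeq2, and 0 to 2 and 0 to 1 with libraries left out. The 1 relative that was higher became 0 with library size alone and with the replicate block, and 0 to 1 with libraries left out. Of the genes annotated as plasma membrane transporters, those called ran between 0 and 1 higher and 0 and 2 lower with libraries left out. Coding genes called higher, 14, were 33 with DESeq2, 23 at 1.5-fold and 1 to 39 with libraries left out. Those called lower, 23, were 56 with DESeq2, 35 with the replicate block, 62 with only the 2 strains fitted and 0 to 65 with libraries left out. The log2 fold change of *cut6* ran between -0.021 and 0.42 with libraries left out and changed sign without *ecl123*Δ library 3 (-0.021). The cause of these changes was not tested. Same-numbered libraries did not deviate together (correlations of -0.34 to 0.35 over 9 pairs), so the numbers were not taken to pair the libraries. Apart from the relative gene and the count of lower genes above, the block changed no other call and moved no other count by over 1.5 times among these results.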
